A study of Mus musculus with 9 samples.

Results

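Mitochondrial ribosomal proteins were followed in SVR cells, a transformed mouse endothelial line that models angiosarcoma, before and after exposure to the beta blocker propranolol. The members were all probes whose gene symbol in the platform annotation starts with Mrpl or Mrps followed by a digit. This rule took 110 of the 25697 probes on the array, for 76 genes. To be tested, a probe had to be detected (p under 0.05 against negative controls) by every array of 1 or more groups. On this filter 93 of the 110 probes, for 69 of the 76 genes, were tested, of 11653 tested probes and 7969 tested genes with a name in all. The brightest tested probe of each of the 69 genes was detected on all 9 arrays, so none of the 69 entered through a single group.

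There were 3 groups of 3 arrays each: sham cells (0 h), propranolol for 4 h and propranolol for 24 h. All were SVR cells grown in flasks to full confluence in medium with serum, and the labels give 50 µM propranolol, whereas the paper of the study describes the array experiment with a higher dose and treatment for 24 h alone. With sham cells labelled 0 h, treatment and time in culture cannot be told apart. SVR is a single immortalized and transformed line, the RNA on the arrays had been pooled over 3 biological replicates, and p-values thus cover only array-to-array spread, possibly technical in origin.

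The mitochondrial ribosome translates the few proteins encoded by mitochondrial DNA, all of them membrane subunits of the oxidative phosphorylation complexes. Its RNAs are made in the mitochondrion, but its proteins are all encoded in the nucleus, made in the cytosol and imported. Some of these proteins descend from those of the bacterial ribosome, and the others are particular to mitochondria. In the symbols, L marks the large subunit, which joins amino acids, and S the small subunit, which reads the mRNA, although Mrps30 and Mrps18a sit in the large subunit of the assembled particle.

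The arrays differed little in brightness. Mean signal ranged from 306.5 to 387.7 in sham, from 326.6 to 373.2 at 4 h and from 306.7 to 341.6 at 24 h, and the number of probes detected was 11454 to 11901, 11494 to 12033 and 11889 to 12245 in the same order. Arrays of 1 group correlated at r = 0.995 to 0.997 and arrays of 24 h and sham at r = 0.956 to 0.959 over all tested probes. Replicate 3 of 24 h was the only array on a second BeadChip, and on the first BeadChip each group filled neighbouring places, and place on the chip and treatment cannot be told apart. Of 9 endothelial markers with a probe, 8 were tested, and all 8 were higher at 24 h than in sham cells, by 0.85 to 2.69 on the log2 scale; their summed normalized signal lay between 6911 and 7052 in sham, between 6424 and 6955 at 4 h and between 16990 and 18600 at 24 h. Of 6 myeloid markers, Ptprc, Itgam, Lyz2 and Adgre1 had a probe by name, and none of the 4 was detected on any array. Cd68 and Csf1r had no probe by name and were not measured here, while the paper lists Cd68 among the genes raised at 24 h. The summed fibroblast markers, of which Col1a1 and Dcn were detected on no array, gave 136 to 150.9, 145.1 to 177.2 and 169.9 to 187.4, and the summed epithelial markers 304.7 to 376, 237.5 to 271.3 and 146.8 to 168.6. The part of these shifts in the results on the ribosomal genes was not tested. In RNA from a whole culture, fewer cells of a type and less RNA per cell cannot be told apart, and after quantile normalization every value is relative to the rest of the RNA on the array.

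After 24 h of propranolol, RNA of the mitochondrial ribosomal proteins was lower across both subunits. Of the 69 genes tested, 51 were called lower than in sham cells (73.9%), against 30.4% of all tested genes, and 2 were called higher, Mrpl14 and Mrpl24, where the share of all tested genes was also 30.4%. The median log2 fold change of the 69 genes was -0.36, a fall of 1.29-fold, with a range of -0.97 to 0.53, and the median over all tested genes was -0.02. The estimate was below 0 for 66 of the 69 genes, the exceptions being Mrpl14, Mrpl24 and Mrpl27. The changes were moderate in size: 14 genes fell by 1.5-fold or more (11.1% of all tested genes did), none rose by that much (13.6% of all tested genes did), and none changed 2-fold. Array values alone gave similar counts: for 53 of the 69 genes every 24 h array lay below every sham array (33.3% of all tested genes), and for 3 genes every 24 h array lay above (33.1% of all tested genes). With 3 arrays against 3, an exact two-sided permutation test of a single gene cannot give a p below 0.1, so calls rest on limma over 11653 probes with Benjamini-Hochberg adjustment, at an adjusted p under 0.05. No test was made of the list as such.

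**Figure D1:**
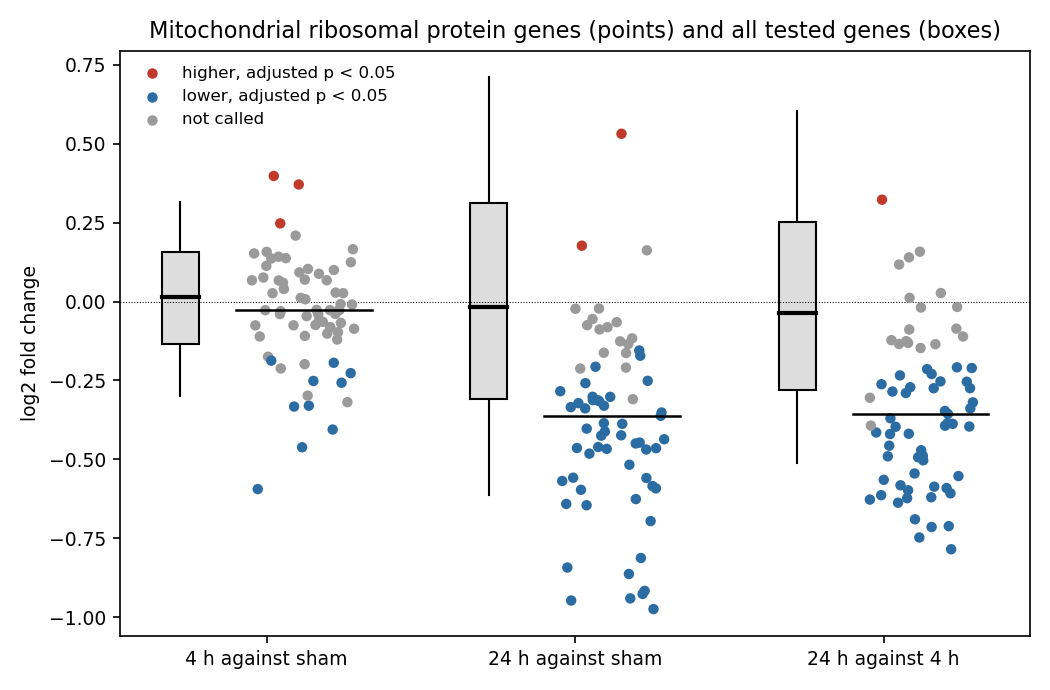
Log2 fold change (y axis) of the 69 tested mitochondrial ribosomal protein genes, 1 point a gene and coloured by call, in the 3 comparisons (x axis); horizontal lines are their medians, and the grey boxes show all 7969 tested genes (median, quartiles and, as whiskers, the 10th and 90th percentiles). At 24 h the points sit mostly below 0 with a median of -0.36, while at 4 h their median is -0.03.

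The start regions of the 6 genes with the largest falls at 24 h, and of Mrpl14, the gene with the largest rise, show what kind of promoter these genes have and which letters of known factor motifs they hold. Each line gives the 120 bases before the annotated transcription start, on the plus strand of GRCm38.p6, as RefSeq has it. Capitals mark matches to the motifs of NRF1 (GCGCANGCG), of ETS factors such as GABP (CCGGAAG), YY1 (AAGATGGC) and Sp1 (GGGCGG) and to the E-box read by Myc and related factors (CACGTG), each searched on both strands.
Mrpl12, chr11:120484517-120484636: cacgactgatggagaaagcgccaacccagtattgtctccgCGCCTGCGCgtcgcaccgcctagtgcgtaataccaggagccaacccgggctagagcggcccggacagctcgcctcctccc
Mrps26, chr2:130563637-130563756: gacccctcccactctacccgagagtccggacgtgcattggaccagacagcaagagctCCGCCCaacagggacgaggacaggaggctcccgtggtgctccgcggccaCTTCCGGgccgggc
Mrpl16, chr19:11770295-11770414: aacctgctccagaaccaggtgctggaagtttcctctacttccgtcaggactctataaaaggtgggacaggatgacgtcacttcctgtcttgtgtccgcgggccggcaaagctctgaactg
Mrps5, chr2:127587306-127587425: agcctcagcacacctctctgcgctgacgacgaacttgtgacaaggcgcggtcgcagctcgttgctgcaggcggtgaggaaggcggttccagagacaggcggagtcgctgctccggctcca
Mrpl52, chr14:54426789-54426908: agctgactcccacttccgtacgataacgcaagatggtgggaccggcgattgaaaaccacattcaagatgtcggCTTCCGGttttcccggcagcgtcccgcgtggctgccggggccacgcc
Mrpl20, chr4:155802758-155802877: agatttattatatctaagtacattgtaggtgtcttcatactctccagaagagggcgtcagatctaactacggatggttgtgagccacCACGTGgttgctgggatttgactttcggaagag
Mrpl14, chr17:45686229-45686348: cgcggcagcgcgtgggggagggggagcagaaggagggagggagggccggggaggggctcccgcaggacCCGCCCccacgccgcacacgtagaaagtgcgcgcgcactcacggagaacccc
The capitals lie in different places and belong to different motifs. Mrpl12 has an NRF1 match that begins 80 bases before the start. Mrps26 and Mrpl52 each have an ETS match, beginning 14 and 47 bases before it. Mrpl20 has an E-box 33 bases before it, Mrps26 and Mrpl14 have a Sp1 match, and Mrpl16 and Mrps5 hold none of the 5 motifs in these 120 bases.

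Over whole promoter windows of 300 bases, 250 before the start and 50 after, 67 of the 76 genes matched a RefSeq entry, with 73 windows. The ETS motif was in 35.6% of these windows, against 8.86% of all 32851 windows in the table and 17.5% of the windows of other genes tested here. The NRF1 motif was in 20.5%, against 6.25% and 13.6%, and the YY1 motif in 16.4%, against 2.75% and 4.54%. For the Sp1 motif the shares were 53.4%, 35.7% and 63.3%, and for the E-box 9.59%, 7.15% and 10%. Genes called lower at 24 h were found with and without each motif. The counts below stand against 73.9% of the 69 tested members and 30.4% of all tested genes called lower. Of tested genes with a window, 17 of 25 with an ETS match and 28 of 36 without were called lower, with median log2 fold changes of -0.31 and -0.40. The counts were 10 of 12 with and 35 of 49 without an NRF1 match (medians -0.46 and -0.34), and 9 of 11 with and 36 of 50 without a YY1 match (medians -0.40 and -0.35). For Sp1 they were 22 of 31 with and 23 of 30 without (medians -0.387 and -0.33). For the E-box they were 4 of 5 with and 41 of 56 without (medians -0.425 and -0.374). These letters are a description of the windows, with no test.

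In the large subunit the leading genes were Mrpl12, Mrpl16, Mrpl52 and Mrpl20. Mrpl12, on chromosome 11, forms the flexible stalk of the large subunit that recruits translation factors, and it also binds mitochondrial RNA polymerase. Its normalized log2 intensity was 11.56, 11.50 and 11.64 on the sham arrays, 11.41, 11.29 and 11.32 at 4 h and 10.55, 10.55 and 10.67 at 24 h. The 3 groups did not overlap, and the 24 h arrays lay far below both others. The log2 fold change at 24 h was -0.97 ± 0.07 (SE, n = 3 arrays per group), a fall of 1.97-fold with a limma adjusted p of 9.1e-07. Mrpl16, on chromosome 19, is a core protein near the site where tRNAs enter the large subunit. It read 9.55, 9.46 and 9.41 in sham, 9.06, 9.14 and 9.23 at 4 h and 8.51, 8.76 and 8.33 at 24 h, again with no overlap but with a wider spread at 24 h. Its log2 fold change was -0.94 ± 0.10 (SE), with a limma adjusted p of 2.5e-05. Mrpl20, on chromosome 4, whose bacterial counterpart is needed early in assembly of the large subunit, read 7.91, 7.89 and 7.85 in sham, 7.65, 7.71 and 7.40 at 4 h and 7.18, 6.90 and 6.98 at 24 h. All 24 h arrays were below all others, and the log2 fold change was -0.86 ± 0.10 (SE, limma adjusted p = 2.9e-05), or -0.48 with the authors' table, which has no background correction. Mrpl52, on chromosome 14, is found only in mitochondrial ribosomes. It read 8.75, 8.75 and 8.12 in sham, 8.06, 8.14 and 8.47 at 4 h and 7.32, 7.95 and 7.60 at 24 h. Sham and 4 h arrays overlapped, the 24 h arrays lay below both, and the spread was the widest of the genes plotted by array, with a log2 fold change of -0.92 ± 0.20 (SE, limma adjusted p = 0.0025).

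In the small subunit the leading genes were Mrps26, Mrps5, Mrps10 and Mrps35. Mrps26, on chromosome 2 and particular to mitochondria, read 9.86, 9.84 and 9.71 in sham, 9.57, 9.53 and 9.53 at 4 h and 8.80, 8.94 and 8.83 at 24 h. The groups did not overlap, and the log2 fold change at 24 h was -0.95 ± 0.07 (SE, limma adjusted p = 1.1e-06). A second probe of the gene gave -0.87. Mrps5, on the same chromosome, is a homologue of a bacterial protein at the mRNA entry channel. It read 9.29, 9.28 and 9.30 in sham, 9.02, 9.02 and 9.19 at 4 h and 8.27, 8.45 and 8.37 at 24 h. Sham arrays were nearly identical and all 24 h arrays were lower, for a log2 fold change of -0.93 ± 0.07 (SE, limma adjusted p = 2.2e-06); the other tested probe gave -0.72. Mrps10, on chromosome 17, is a core protein of the head of the small subunit. It read 10.03, 10.02 and 9.98 in sham, 9.72, 9.80 and 9.76 at 4 h and 9.28, 9.23 and 9.0 at 24 h, with no overlap and a log2 fold change of -0.84 ± 0.08 (SE, limma adjusted p = 7.5e-06). Mrps35, on chromosome 6, read 8.79, 8.69 and 8.61 in sham, 8.65, 8.72 and 8.64 at 4 h and 7.90, 7.80 and 7.96 at 24 h. Here the sham and 4 h arrays overlapped and only the 24 h arrays stood apart, with a log2 fold change of -0.81 ± 0.07 (SE, limma adjusted p = 4.5e-06).

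**Figure D2:**
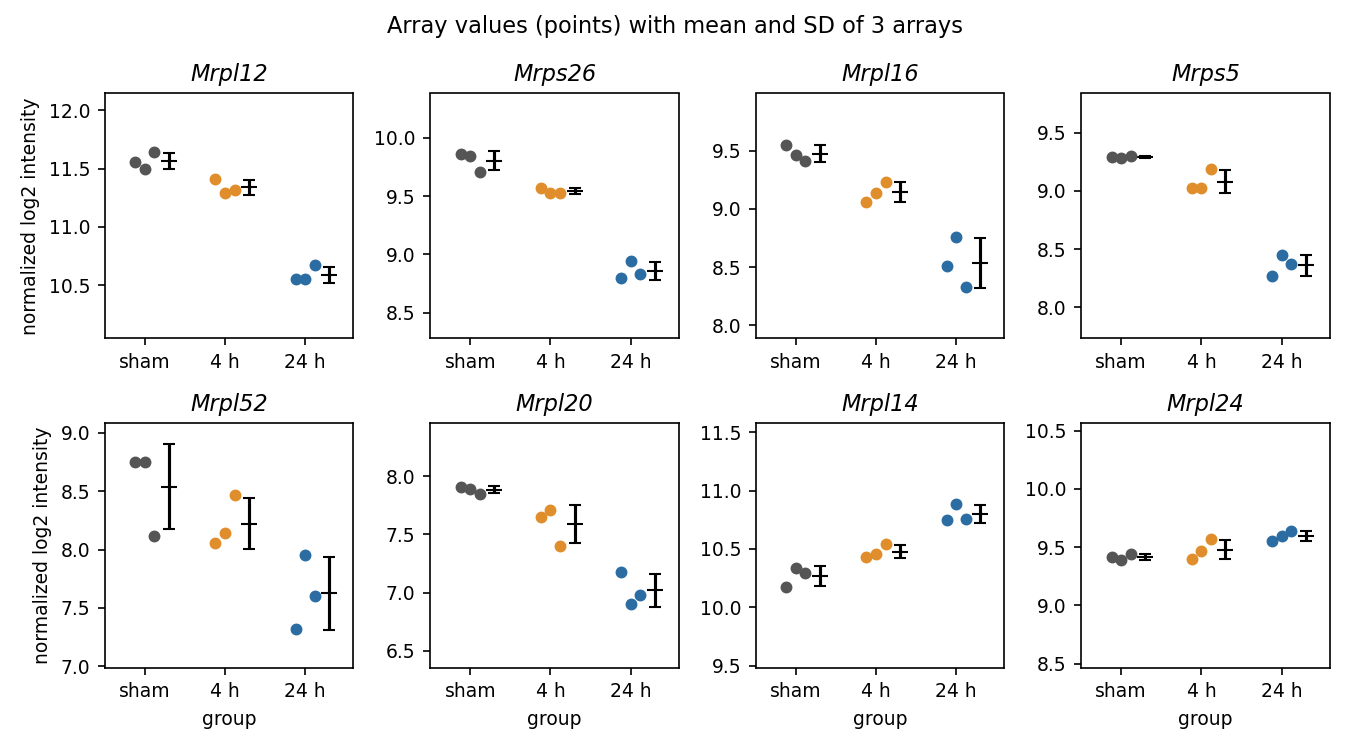
Normalized log2 intensity (y axis, the same span in each panel) of the 6 largest falls and the 2 rises at 24 h, by group (x axis); points are the 3 arrays of a group, and bars are mean and SD. For the 6 falls each 24 h array lies below every sham array, and for Mrpl14 and Mrpl24 each lies above.

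The other genes that fell 1.5-fold or more had log2 fold changes at 24 h of -0.70 (Mrpl50), -0.65 (Mrpl9), -0.64 (Mrpl28), -0.63 (Mrps22), -0.60 (Mrps27) and -0.59 (Mrps9). With the authors' table Mrps27 was -0.30 and still called. Mrps22 is a small-subunit protein whose human counterpart is mutated in inherited mitochondrial disease. A further 20 genes fell between 1.3-fold and 1.5-fold: Mrpl2, Mrpl3, Mrpl15, Mrpl17, Mrpl18, Mrpl30, Mrpl37, Mrpl40, Mrpl47, Mrpl49, Mrpl57, Mrps2, Mrps7, Mrps11, Mrps12, Mrps16, Mrps18b, Mrps24, Mrps25 and Mrps28. Another 17 fell by less than 1.3-fold: Mrpl1, Mrpl11, Mrpl13, Mrpl22, Mrpl23, Mrpl34, Mrpl36, Mrpl38, Mrpl42, Mrpl53, Mrpl58, Mrps6, Mrps17, Mrps21, Mrps23, Mrps30 and Mrps34. Some of the calls were narrow. Mrps25 had a log2 fold change of -0.46 with an adjusted p of 0.024 and was -0.33 without replicate 2 of sham, where the call was lost. It was also lost without replicate 3 of sham (-0.42) and without replicates 1 or 2 of 24 h (-0.43 and -0.46), and with the authors' table (-0.12), no detection filter or an ordinary variance (both -0.46), although all 3 tested probes of the gene were called lower in the fit as reported. Mrps6, at -0.16 with an adjusted p of 0.038, lost its call without any single sham or 24 h array, with estimates of -0.17 to -0.13, and without replicate 2 of 4 h (-0.16).

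Mrpl14 was the main exception in direction. Its protein is a core component of the large subunit at the face that meets the small subunit. The array values were 10.17, 10.34 and 10.29 in sham, 10.43, 10.46 and 10.54 at 4 h and 10.75, 10.89 and 10.76 at 24 h, so that the 3 groups stood in order without overlap. Its log2 fold change at 24 h was 0.53 ± 0.07 (SE, n = 3 arrays per group), a rise of 1.45-fold with a limma adjusted p of 0.00011, and at 4 h it was 0.21 with an adjusted p of 0.063. The rise at 24 h was smaller but still called under other scalings, at 0.26 with median centring and 0.28 after division by the 75th percentile. Mrpl24, also of the large subunit, read 9.42, 9.39 and 9.44 in sham and 9.55, 9.60 and 9.64 at 24 h. The groups did not overlap but the rise was small, at 0.18 (limma adjusted p = 0.036), and its call was lost without any 1 sham array (0.16 to 0.19) or without replicate 2 (0.17) or 3 (0.16) of 24 h.

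The 16 genes not called at 24 h were Mrpl4, Mrpl10, Mrpl27, Mrpl33, Mrpl35, Mrpl43, Mrpl46, Mrpl48, Mrpl51, Mrpl54, Mrpl55, Mrps15, Mrps18a, Mrps18c, Mrps31 and Mrps33, with log2 fold changes from -0.31 (Mrps15) to 0.16 (Mrpl27). Mrps15, Mrpl51 and Mrpl55 had estimates of -0.31, -0.21 and -0.21 whose arrays overlapped with sham. At the flat end were Mrpl33, with 11.97, 11.94 and 11.91 in sham and 11.97, 11.95 and 11.84 at 24 h, and Mrpl10, with 10.71, 10.84 and 10.82 in sham and 10.77, 10.77 and 10.76 at 24 h. Their differences of -0.02 were smaller than the spread among sham arrays.

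**Figure D3:**
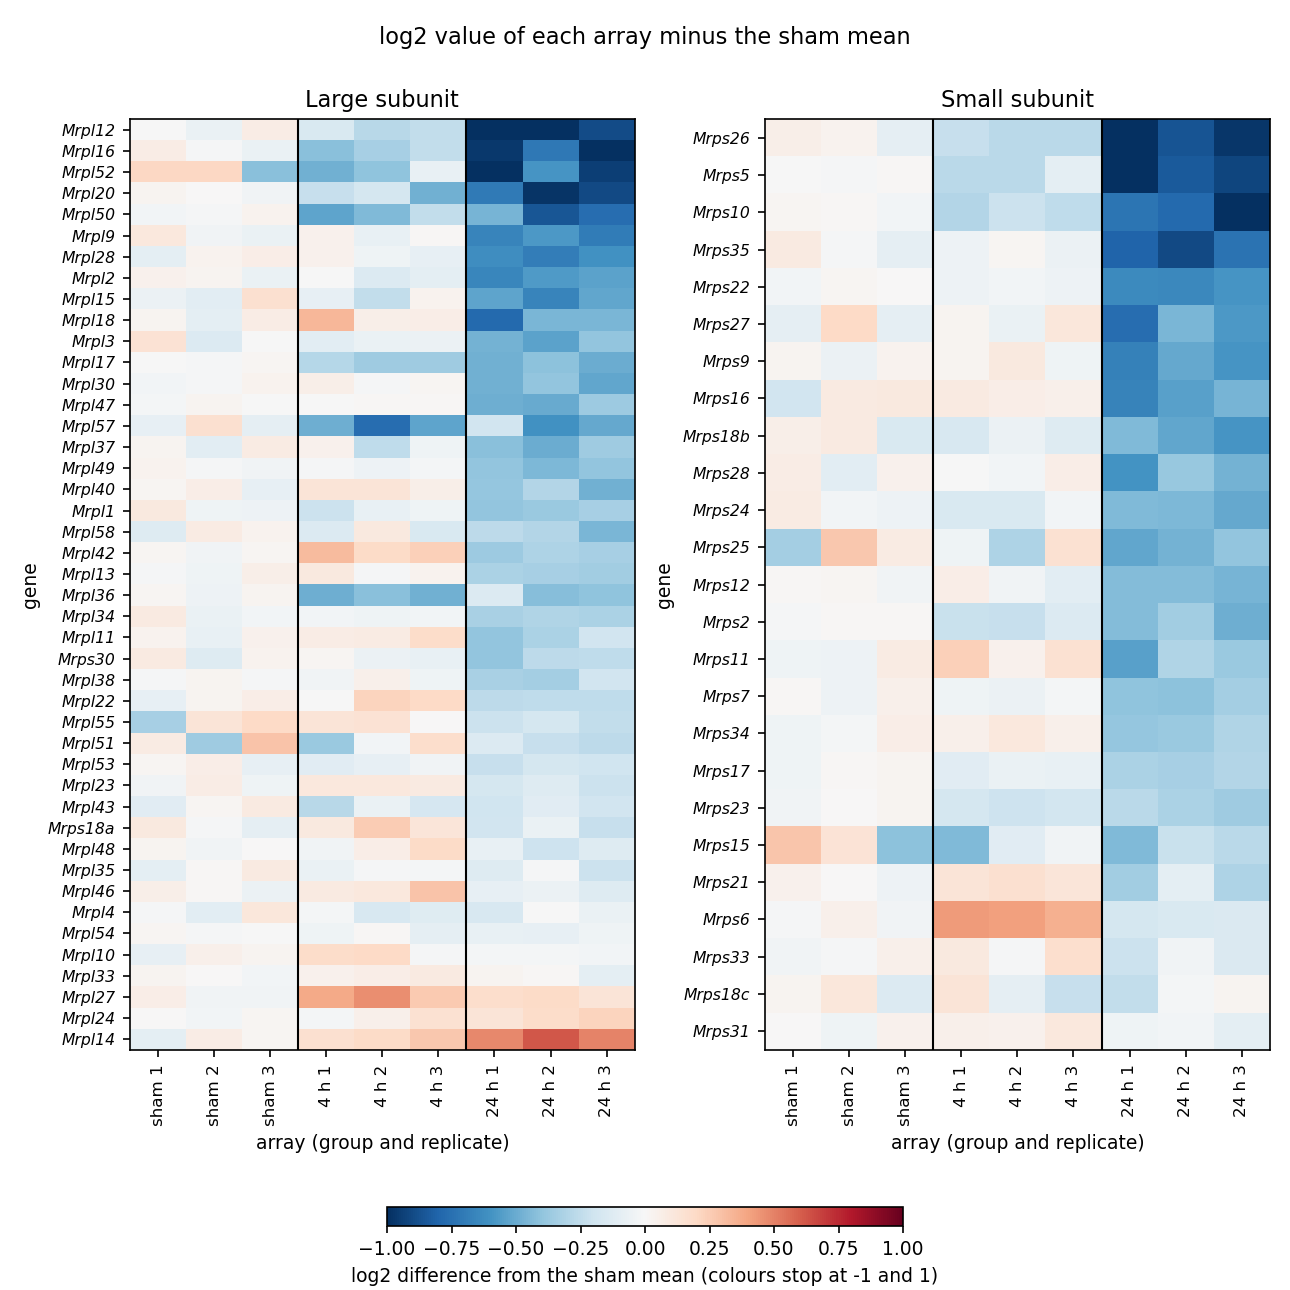
Log2 value of every array minus the sham mean of the gene (colour, stopping at -1 and 1) for the 69 tested genes (rows) and 9 arrays (columns), split by subunit and ordered by the change at 24 h. The 3 columns of 24 h are blue for most genes in both panels, with Mrpl14 and Mrpl24 at the foot of the large subunit.

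Both subunits and both kinds of protein shared in the fall. The counts below stand against 30.4% of all tested genes called lower at 24 h and 30.4% called higher. With Mrps30 and Mrps18a counted in the large subunit, 21 of 25 genes of the small subunit were called lower at 24 h and 0 higher, with a median log2 fold change of -0.45 and all 25 estimates below 0. In the large subunit 30 of 44 were called lower and 2 higher, with a median of -0.33. Of homologues of bacterial ribosomal proteins 33 of 44 were called lower (median -0.40), and of proteins particular to mitochondria 18 of 25 (median -0.34). These medians differ by less than the range within each class and were not tested against each other. Among genes of known role, Mrps12, a protein of the decoding centre, was lower at 24 h by -0.45 (adjusted p = 0.00014), Mrpl11, at the base of the stalk that carries Mrpl12, by -0.30 (adjusted p = 0.005), and Mrps30 by -0.30 (adjusted p = 0.0055), all by limma. Mrpl58, a peptidyl-tRNA hydrolase built into the large subunit, was lower by -0.34 (limma adjusted p = 0.0092). The 3 paralogs of bacterial S18 did not share 1 call, with -0.52 for Mrps18b (limma adjusted p = 0.00023), -0.16 for Mrps18a (adjusted p = 0.092) and -0.08 for Mrps18c (adjusted p = 0.55), and the differences between them were not tested.

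The fall was seen on each 24 h array and in dim and bright genes alike. The median deviation of the 69 genes from their sham means was -0.37 ± 0.02 (SD, n = 3) over the 24 h arrays, -0.03 ± 0.01 over the 4 h arrays and 0.01 ± 0.01 over the sham arrays. Without replicate 3 of 24 h, the array on the second BeadChip, 48 genes were called lower and 1 higher, with a median log2 fold change of -0.38. Split by mean signal into 3 classes of 23 genes, the dim, middle and bright genes had medians of -0.42, -0.39 and -0.33. In these classes 17, 16 and 18 genes were called lower. For all tested genes of like signal the medians were -0.02, -0.04 and -0.05, and 31.9%, 37.7% and 39% were called lower. Across the 69 genes, which share arrays and are not independent, mean signal and the change at 24 h had r = 0.138 (Pearson) and 0.155 (Spearman).

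At 4 h most of these genes were near their sham level, and few were called. Of the 69 genes, 10 were called lower, against 11.5% of all tested genes, and 3 higher, against 13.1% of all tested genes, with a median log2 fold change of -0.028 (0.013 over all tested genes). The count of lower calls at 4 h is close to the background and depended on single arrays: it was 4 without any 1 of the sham arrays or without replicate 2 of 4 h, and 5 without replicate 1 or 3 of 4 h. The comparisons at 4 h and at 24 h use the same sham arrays, so their values are set side by side below for single genes only.

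The early falls of 3 genes of the large subunit kept their calls wherever they were tested. Mrpl57 read 5.58, 5.82 and 5.57 in sham, 5.17, 4.90 and 5.13 at 4 h and 5.47, 5.05 and 5.15 at 24 h. It was lower at 4 h by -0.59 (limma adjusted p = 0.0063) and at 24 h by -0.44 (adjusted p = 0.0097), and its probe was dim: without background correction the change at 4 h was -0.22, with the authors' table -0.19, and a stricter detection filter left it out. Mrpl36, a zinc-binding protein, read 10.18, 10.11 and 10.19 in sham, 9.67, 9.74 and 9.68 at 4 h and 10.02, 9.73 and 9.76 at 24 h. Its log2 fold changes were -0.46 at 4 h (limma adjusted p = 0.003) and -0.32 at 24 h (adjusted p = 0.006), and the 4 h and 24 h arrays overlapped. Mrpl17 read 11.43, 11.42 and 11.45 in sham, 11.15, 11.08 and 11.08 at 4 h and 10.95, 11.02 and 10.94 at 24 h, with changes of -0.33 (limma adjusted p = 0.0028) and -0.46 (adjusted p = 5.5e-05). These 3 genes were already apart from sham at 4 h, and their further change from 4 h to 24 h was not called, at 0.16, 0.14 and -0.13. The other 7 early calls were Mrpl50 (-0.41), Mrpl16 (-0.33), Mrps26 (-0.26), Mrps10 (-0.25), Mrpl12 (-0.23), Mrps2 (-0.19) and Mrps23 (-0.19), with limma adjusted p-values of 0.021 to 0.048. Of those followed across alternative settings and left-out arrays, Mrps10 lost its call in 11 and Mrpl16 in 10. Mrpl12 lost it in 6, and Mrpl50 and Mrps26 in 5 each.

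There were 3 genes called higher at 4 h. Mrps6, a homologue of bacterial S6, read 9.65, 9.71 and 9.63 in sham, 10.09, 10.07 and 10.02 at 4 h and 9.49, 9.51 and 9.52 at 24 h, so that every 4 h array stood above every other array. Its log2 fold change was 0.40 at 4 h (limma adjusted p = 0.00099) and -0.16 at 24 h. Mrpl27, at the peptidyl transferase centre, read 9.59, 9.49 and 9.49 in sham, 9.90, 9.99 and 9.78 at 4 h and 9.70, 9.71 and 9.65 at 24 h. All 4 h arrays were above all others, with a change of 0.37 at 4 h (limma adjusted p = 0.0045), and at 24 h it was 0.16 (adjusted p = 0.069). Mrpl42, particular to mitochondria, read 10.79, 10.74 and 10.79 in sham, 11.09, 10.96 and 11.01 at 4 h and 10.41, 10.46 and 10.44 at 24 h. It was thus above sham at 4 h, by 0.25 (limma adjusted p = 0.016), and below it at 24 h, by -0.33 (adjusted p = 0.00081). Its early call was lost without replicate 2 of sham (0.23) or replicate 1 of 4 h (0.21).

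Most of the change came between the treated time points. From 4 h to 24 h, 50 of the 69 genes were called lower, against 28.7% of all tested genes, and 1, Mrpl14, higher, against 26.2% of all tested genes. The median log2 fold change was -0.36 (-0.04 over all tested genes); 14 genes fell 1.5-fold or more (7.40% of all tested genes did) and 0 rose by that much (10.6% of all tested genes did). The largest steps were those of Mrps35 (-0.78, limma adjusted p = 8.6e-06), Mrpl12 (-0.75, adjusted p = 9e-06), Mrps5 (-0.71, adjusted p = 2.1e-05) and Mrpl18 (-0.71, adjusted p = 0.00029). Mrpl18, whose bacterial counterpart binds the smaller ribosomal RNA of the large subunit, read 9.31, 9.19 and 9.36 in sham, 9.62, 9.34 and 9.35 at 4 h and 8.51, 8.83 and 8.83 at 24 h. Its sham and 4 h arrays overlapped, and its 24 h arrays lay below both. Mrpl14 rose again over this interval, by 0.32 (limma adjusted p = 0.0036).

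Of the 69 genes, 19 had more than 1 tested probe, and no gene had probes called in opposite directions in any of the 3 comparisons. Probes of 1 gene differed in call for 2 genes at 24 h against sham, 3 at 4 h and 5 between the treated times. At 24 h these were Mrpl47 and Mrps31. The brightest probe of Mrpl47 gave -0.45 (limma adjusted p = 0.00011) and its other probe -0.03 (adjusted p = 0.76). That other probe was near background, with a sham mean of 4.76 and detection on 8 of 9 arrays, so it could hardly show a fall. The brightest probe of Mrps31 gave -0.06, and 1 of its 2 other tested probes was called lower at -0.30 (limma adjusted p = 0.031). For Mrps33 the brightest probe gave 0.09 at 4 h, where the other was called higher at 0.39 (limma adjusted p = 0.003). For Mrps10 and Mrps26 the brightest probe was called lower at 4 h (-0.25 and -0.26), and the other tested probe was not (-0.16 and -0.09). All 4 tested probes of Mrpl49 were called lower at 24 h, from -0.61 to -0.26. Of the 7 genes with no tested probe, Mrpl19, Mrpl21, Mrpl32, Mrps14 and Mrps36, a protein now placed in the oxoglutarate dehydrogenase complex, were detected on no array. Mrpl39 and Mrpl45 were each detected on 4 of 9 arrays, Mrpl45 on 2 sham, 2 of the 4 h and 0 of the 24 h arrays, which sets no level for them.

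Genes that make or serve the mitochondrial ribosome were also measured, by the same test, where 30.4% of all tested genes were called lower at 24 h and 30.4% higher. Their lists were written from textbook knowledge. Of factors that copy or transcribe mitochondrial DNA or process its RNA, 11 of 12 were called lower and 0 higher, with a median log2 fold change of -0.53. They included Ssbp1, the single-stranded DNA binding protein of mitochondria (-0.94, limma adjusted p = 7.7e-06), the tRNA processing enzyme Elac2 (-0.94, adjusted p = 3.4e-05), the RNase P subunit Hsd17b10 (-0.88, adjusted p = 4.1e-05) and the DNA polymerase subunit Polg2 (-0.73, adjusted p = 0.0018). The Polg2 probe was dim, with a sham mean of 5.55. Of mitochondrial translation factors 8 of 12 were called lower and 1 higher (median -0.40). Elongation factors led the fall, with Gfm1 at -0.73, Tsfm at -0.61 and Tufm at -0.60, while the release factor Mtrf1 rose by 0.38 (limma adjusted p = 0.0082). Of assembly factors and rRNA-modifying enzymes 8 of 16 were called lower and 2 higher (median -0.19). Rbfa, which matures the small subunit, fell by 1.00 on the log2 scale (limma adjusted p = 9.6e-07), the rRNA methyltransferases Mrm3 and Tfb1m by 0.73 and 0.55 and the GTPase Noa1 by 0.60, whereas Mterf3 (0.25) and the helicase Ddx28 (0.24) were higher. The Tfb1m probe was dim, with a sham mean of 5.42. Of 3 tested ribosomal proteins with other names Ptcd3 was lower (-0.51, limma adjusted p = 0.00038), and Dap3 and Chchd1 were not called, both at -0.09.

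Nuclear regulators of mitochondrial genes were measured as well. Of 7 tested, 5 were called lower at 24 h and 0 higher, against 30.4% of all tested genes each way. The 5 were the coactivator Ppargc1b (-1.06, limma adjusted p = 1.5e-05), Myc (-0.59), the nuclear receptor Esrra (-0.41), the GABP subunit Gabpb1 (-0.36) and Nrf1 (-0.31). The Ppargc1b probe was dim, with a mean of 5.93 in sham and 4.88 at 24 h. Gabpa, which carries the DNA-binding part of GABP, was not called (-0.16, limma adjusted p = 0.34), and neither was Gabpb2 (0.06). At 4 h Myc alone among the 7 was called, at -0.61.

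The cytosolic ribosome and the respiratory chain gave other counts. Of 52 cytosolic ribosomal protein genes 14 were called lower at 24 h (26.9%) and 4 higher (7.69%), against 30.4% of all tested genes each way. Their median log2 fold change was -0.07, and the largest fall was that of Rplp0 (-1.22, limma adjusted p = 2.4e-07). Most probes of this list were brighter than those of the members, whose mean log2 signal went up to 12. The largest falls were at dimmer probes. Rplp0 had a sham mean of 10.12, and Rps15a (6.16), Rpl30 (11.41) and Rpl27a (9.61) changed by -0.83, -0.80 and -0.77. The bright Rplp1 (13.97) and Rps2 (13.94) were not called (-0.01 and 0.05). These counts thus do not compare both ribosomes at like signal. Of 69 nuclear genes for oxidative phosphorylation subunits 29 were called lower (42%) and 6 higher (8.7%), against the same 30.4% each way. Their median was -0.17. Atp5a1, of the catalytic part of ATP synthase, was lower by -0.75 (limma adjusted p = 3.9e-05), by a dim probe with a sham mean of 6.46. Of the same part, Atp5c1, Atp5d and Atp5e were lower (-0.46, -0.34 and -0.40). The bright Atp5b, with a sham mean of 13.85, was not called (0.10). The muscle form Cox6a2 was higher by 2.83 (limma adjusted p = 3.4e-09). At 4 h oxidative phosphorylation genes had 11 higher calls (15.9%, against the 13.1% of all tested genes) and 0 lower (against 11.5%), with a median of 0.08. The differences between these lists and the mitochondrial ribosome were not tested.

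**Figure D4:**
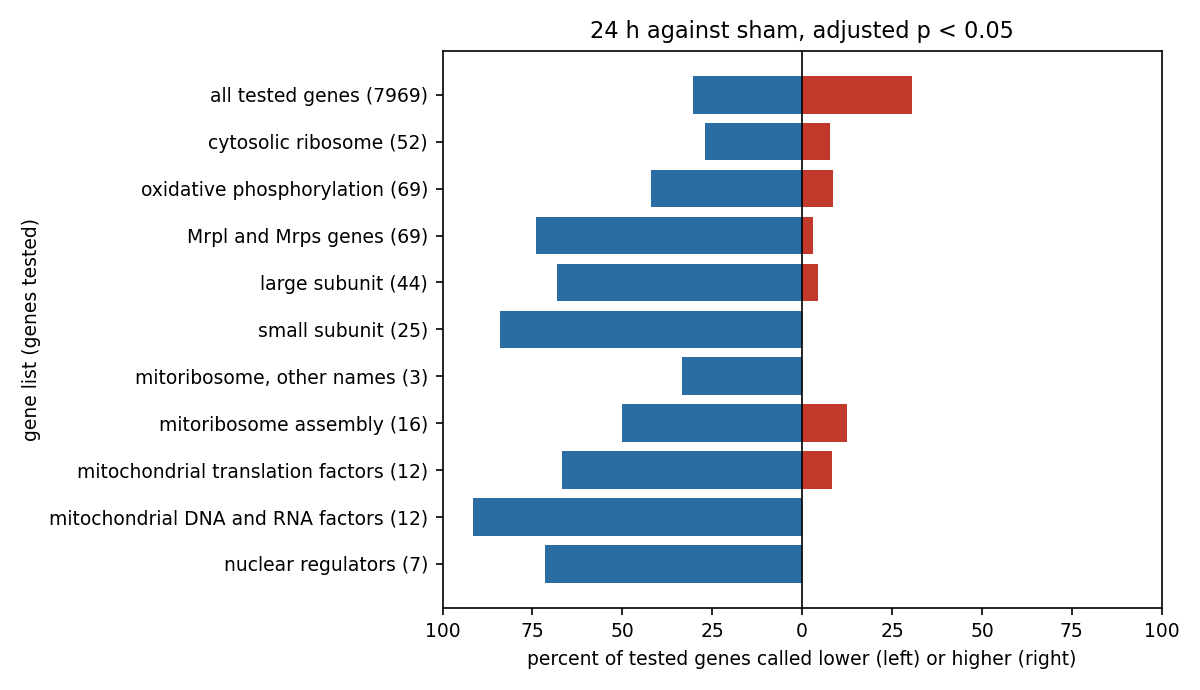
Percent of the tested genes of each list (y axis, number tested in parentheses) called lower (blue, left) or higher (red, right) at 24 h against sham, at a limma adjusted p under 0.05. Mrpl and Mrps genes have 51 of 69 lower and 2 higher, cytosolic ribosomal proteins 14 of 52 lower and 4 higher, and all tested genes 30.4% each way. The lists were not matched for signal.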

How the data were processed

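SVR cells were measured on 9 Illumina bead arrays, 3 per group. The authors pooled RNA over 3 biological replicates, then amplified, labelled, hybridized and scanned it. No scanner software is named in these sources. Deposited by the authors were, per array and probe, an intensity (mean brightness over a probe's beads, not normalized) and a detection p-value against negative controls. Their second table holds the same intensity times a constant per array. No column lacked a sample. Over tested probes of members the median bead standard error was 3.91% of signal, and the number of arrays limits the precision.

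Intensities were corrected by normexp and quantile normalized on the log2 scale (neqc, limma 3.58.1 in R 4.3.3, offset 16). All 9 arrays entered 1 linear model with 3 groups, and p-values were adjusted by Benjamini-Hochberg over all tested probes. Of all probes 23978 had 1 gene symbol in the platform annotation, 1719 none and 0 several; symbols were updated through gene numbers for 23962. A gene stands for its brightest tested probe. The median difference between arrays of a group was 0.812 to 1.74 times its combined bead error, above the 0.674 that bead error alone gives, so each array counted once. The alternatives were the authors' scaling, other background corrections and normalizations, filters, probe averages, variance models, a replicate block and leaving out each array. Replicate numbers did not pair samples.

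Members and lists were chosen with earlier results of these data known. Named genes were the largest called changes in each comparison (12, or 6 at 4 h), members of known role, those whose probes disagree and untested genes. From each list some genes were named, and these were not always the largest changes. All other members are named by size class. Promoters came from RefSeq (GRCm38.p6).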

Additional observations from a re-analysis of the deposited data

Results flagged for a closer look

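The change from sham at 24 h differed from that at 4 h for 28 of the named genes (limma, adjusted p under 0.05). This is the fitted difference between the treated groups, which shares no sham array. Named genes were picked in part for large called changes in this same comparison, so their number is not a result. Of all tested genes 28.7% were called lower and 26.2% higher in it. The log2 effect at 24 h minus that at 4 h was lowest for Mrps35 (-0.78), Mrpl12 (-0.75), Mrps5 (-0.71), Mrpl18 (-0.71) and Mrps26 (-0.69). Differences from -0.64 to -0.60 were found for Mrpl9 (-0.64), Mrps16 (-0.63), Mrps27 (-0.62), Mrps9 (-0.62), Mrpl28 (-0.61), Mrpl16 (-0.61) and Mrpl52 (-0.60). Next came Mrps10 (-0.59), Mrps22 (-0.59), Mrpl42 (-0.58), Mrpl20 (-0.56), Mrps6 (-0.55) and Mrpl47 (-0.46). Among the genes of known role the values were -0.42 for Mrps12, -0.41 for Mrpl11, -0.40 for Mrps18b, -0.32 for Mrps18a and -0.26 for Mrps30. The others were -0.34 for Mrpl37, -0.29 for Mrpl50, -0.21 for Mrps33 and -0.21 for Mrpl27. Among these genes only Mrpl14 had an upward difference, of 0.32. Some of these calls were lost when single arrays were left out. Mrpl50 lost its call (-0.31 to -0.21) without any array other than replicate 1 of 4 h or of 24 h, and Mrpl27 (-0.22 to -0.16) without replicates 1 or 2 of 4 h or any 24 h array. Mrps33 lost it (-0.21 to -0.17) without replicates 1 or 3 of 4 h or of 24 h, Mrpl52 (-0.59 to -0.45) without replicate 3 of 4 h or replicates 1 or 3 of 24 h, and Mrps30 (-0.22) without replicate 1 of 24 h.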

How the results depend on the processing

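At 24 h against sham the count of genes called lower stayed within 1.5 times under every alternative, and no called value of a named gene turned in direction; 63 to 67 of the 69 estimates were below 0 with the other scalings. The median log2 fold change was -0.32 with the authors' table, -0.55 with normexp and median centring, -0.47 after division by the 75th percentile, -0.31 without background correction and -0.34 without the detection filter. The median of all genes was -0.02 in the fit as reported, -0.10 with median centring and 0.08 with the authors' table; relative to it, the members' median was -0.45 to -0.30 under these settings. Of all genes called, 50% were lower in the fit as reported, 36.3% with the authors' table, 59.9% with median centring and 63.6% after division by the 75th percentile. Under the last pair of settings 1 gene was called higher at 24 h, Mrpl24 being lost. At 4 h the median was -0.045, -0.079 and -0.061 with the authors' table, median centring and the 75th percentile, and 5 genes were called higher without background correction and when all probes of a gene were averaged. From 4 h to 24 h, 3 genes were called higher with the authors' table and 0 with median centring, and the median was -0.28, -0.49, -0.42, -0.32 and -0.31 with the authors' table, median centring, the 75th percentile, no background correction and no filter. Same-numbered arrays did not deviate together (r from -0.02 to 0.01 over 9 pairs); with the replicate block 50, 5 and 49 genes were called lower at 24 h, at 4 h and between them, and Mrps6 at 24 h, Mrpl12, Mrpl16 and Mrps10 at 4 h and Mrpl50 between the times lost their calls. Leaving out single arrays gave 47 to 52 lower and 1 to 2 higher at 24 h (median -0.38 to -0.36), 4 to 9 lower and 2 to 3 higher at 4 h (median -0.032 to -0.019), and 44 to 51 lower and 1 higher between the times (median -0.37 to -0.34). With the authors' table, which has no background correction, Mrpl57 (-0.06) and Mrps25 (-0.12) were not called at 24 h, and Mrpl14 between the times was 0.12 and not called with median centring. The cause of these changes was not tested. Dim probes are limited by background, and 7 genes had no probe with enough signal.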

Other observations

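Some mitochondrial ribosomal protein genes lie head to head with a neighbour, with both starts close together on opposite strands. This feature was looked at after the values had been seen, and it is given as a description with no test. Within 1000 bases in GRCm38.p6, 25 of the genes had such a neighbour, and in 14 pairs the neighbour was no member and both genes were tested. Of the members of these 14 pairs 10 were called lower at 24 h. Of the 14 neighbours 8 were called lower (57.1%, against 30.4% of all tested genes) and 2 higher, with a median log2 fold change of -0.28. In 6 pairs both genes were called lower, and whether the genes of a pair change together was not tested. Mrpl14, the gene that rose most, starts 131 bases from Tmem63b, which was also higher, by 0.68. Mrpl18 starts 238 bases from the chaperonin gene Tcp1, and both were lower, by -0.56 and -0.60. Mrpl2 went the other way from its neighbour: it was lower by -0.58 and Klc4, 141 bases away, was higher by 0.90. Mrps11 and Mrpl46 are both members and start 42 bases apart, with -0.40 (limma adjusted p = 0.002) and -0.09 (adjusted p = 0.31) at 24 h.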
